A study of Mus musculus with 16 samples.

Results

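The 7 genes described here were grouped as genes of the epithelium of the gut and other mucosal surfaces: Cdh17, Cdhr2, Cdhr5, Spink1, Cxcl17, Tff3 and Gprc5a. They were chosen by their measured levels in this data set, as genes near 0 in peri-tumor tissue and higher in tumors. They are 7 of the 54838 genes of the count table, and all 7 were among the 14865 with enough counts to be tested. The libraries come from mouse liver and fall into 4 groups of 4: tumors and the liver tissue around them (peri-tumor) of mice on a decoction of traditional Chinese medicine (TCM), and tumors and peri-tumor tissue of control mice. All 16 carry the HrasG12V genotype, an active form of the Ras oncogene, in both tissues and in controls too, so no tissue without the oncogene was compared. Each of 8 mice gave both tissues. The labels' treatment protocol names Ras-Tg mice and mice induced with the carcinogen DEN together without saying whether these mice received DEN. The labels add 3 months without saying of what. Neither the promoter of the transgene nor what the decoction held, nor its dose, is stated in the sources used here. The study's question is how the decoction acts on liver tumors.

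As background, the gut lining is a sheet of absorptive enterocytes, whose upper face is a brush border of packed microvilli, with mucus-making goblet cells between them. Cdhr2 and Cdhr5 are cadherin-like proteins that bind each other between the tips of neighbouring microvilli and hold the brush border in order. Cdh17, the liver-intestine cadherin, joins neighbouring cells along their sides, Spink1 blocks trypsin, Tff3 is a trefoil peptide secreted with mucus, Cxcl17 is a chemokine of mucosal surfaces, and Gprc5a is an orphan receptor of epithelia that retinoic acid induces. The adult liver carries microvilli of its own, on the bile canaliculi of hepatocytes.

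The members were chosen for their difference between tumor and peri-tumor tissue, so those differences are given as a description, without a test. Levels are CPM (counts scaled to library size with TMM factors) for each library, in the order of replicates 1 to 4, and group values are mean ± SD with n = 4. A gene was called where its p, adjusted over all 14865 genes, was under 0.05. The label held for 5 of the 7 genes, though only weakly for Gprc5a in TCM mice. Cdh17, Cdhr2, Spink1, Cxcl17 and Gprc5a stayed under 2 CPM in all 8 peri-tumor libraries and were higher in every tumor. Gprc5a was still under 2 CPM in TCM tumors 2, 3 and 4 (0.682, 1.51 and 1.91 CPM). Tff3 was higher in every tumor but was not near 0 around them, and Cdhr5 had a lower mean in tumors of both treatments, against the rule that names it. Thus 6 of 7 had all tumor libraries above all peri-tumor libraries in both treatments. The same held in TCM mice for 17.3% and in control mice for 20.0% of all tested genes, and the opposite order, as for Cdhr5 in control mice, for 18.8%. Since the rule used this contrast, nothing is read from that count. Called higher in tumors were 17.3% of tested genes in TCM mice and 22.0% in control mice, and called lower were 15.6% in TCM mice and 21.2% in control mice. In bulk tissue, fewer cells of a type and less RNA per cell cannot be told apart, and this holds for each level below.

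**Figure D1:**
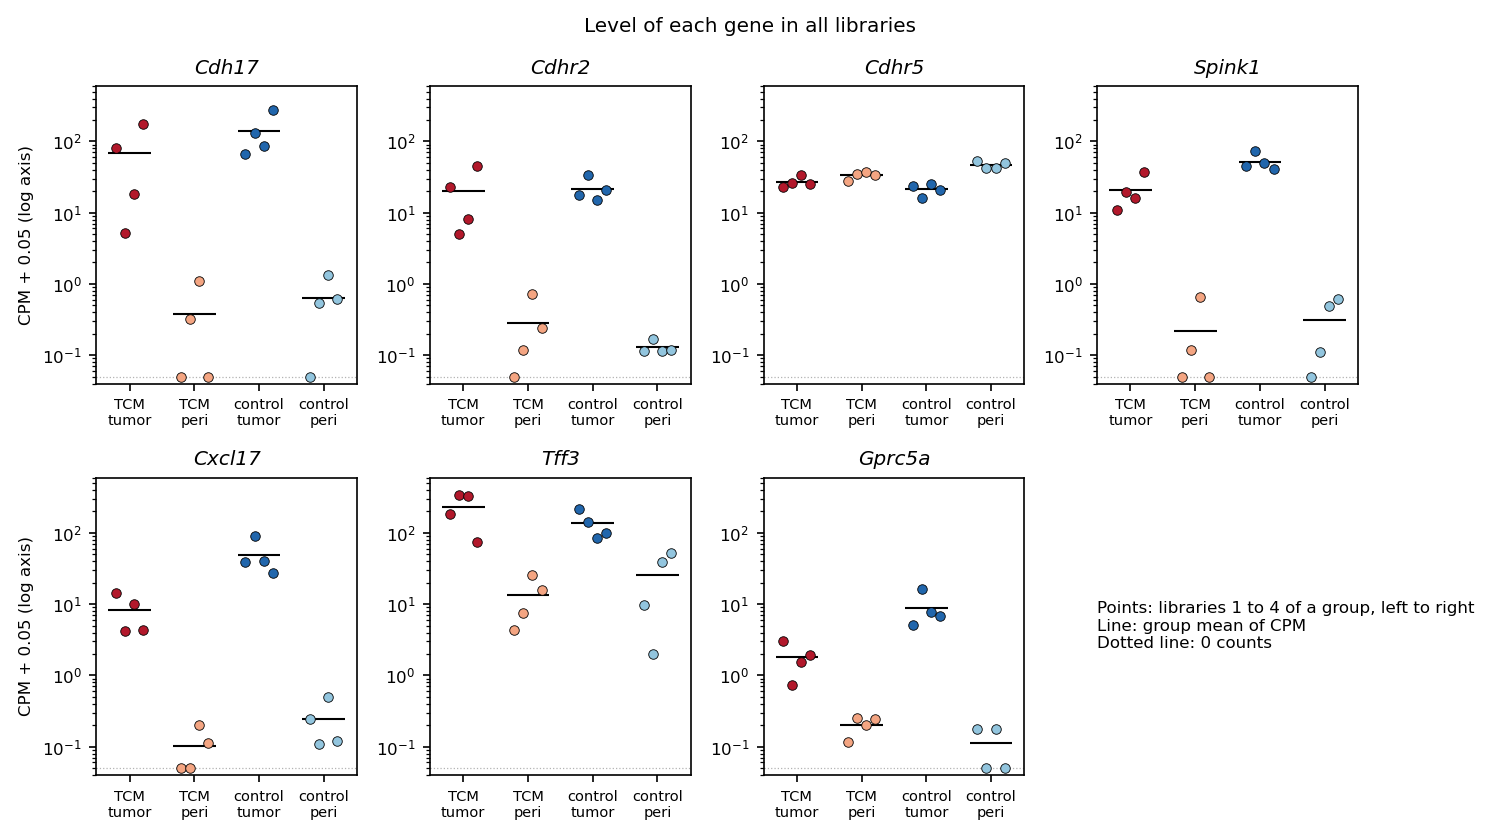
CPM plus 0.05 on a log axis for each of the 7 genes, with 1 point per library (replicates 1 to 4 from left to right) and a line at the group mean, in TCM tumors, TCM peri-tumor tissue, control tumors and control peri-tumor tissue. Points of 6 genes in tumors lie above all their peri-tumor points, while Cdhr5 ran at 26.9 CPM in TCM tumors, 33.2 in TCM peri-tumor tissue, 21.5 in control tumors and 46.8 in control peri-tumor tissue.

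Cdh17 varied most from tumor to tumor. It measured 80.1, 5.14, 18.2 and 176 CPM in TCM tumors, against 0, 0.27, 1.06 and 0 CPM in TCM peri-tumor tissue. Control tumors held 67.5, 133, 85.2 and 277 CPM, against 0, 0.484, 1.27 and 0.558 CPM in control peri-tumor tissue. No tumor overlapped the tissue around it, and TCM tumors 2 and 3 were the lowest of the 8. The log2 fold change was 7.78 ± 1.22 (SE) in TCM mice and 7.91 ± 1.15 in control mice, on 18 counts in all TCM and 36 in all control peri-tumor libraries. Without TCM peri-tumor library 3 the TCM value was 9.51, without TCM tumor 4 it was 6.77, and without control peri-tumor library 3 the control value was 8.64. The gene lies on chromosome 4 (chr4:11758147-11817895, plus strand, GRCm38, GENCODE M21).

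Cdhr2 and Cdhr5, the partners of the link between microvilli, differed: Cdhr2 was higher in tumors and Cdhr5 was not. Cdhr2 was measured at 22.6, 5.02, 8.07 and 45.5 CPM in TCM tumors, against 0, 0.0674, 0.68 and 0.192 CPM in TCM peri-tumor tissue. In control mice it had 17.9, 33.3, 14.9 and 20.5 CPM in tumors, against 0.0636, 0.121, 0.0636 and 0.0697 CPM around them. All tumors lay above all peri-tumor libraries, and the lowest tumor was again TCM tumor 2. Its log2 fold change was 6.46 ± 0.80 in TCM mice (7.73 without TCM peri-tumor library 3, 5.70 without TCM tumor 4) and 7.94 ± 0.91 in control mice, where the peri-tumor libraries held 5 counts in all. Cdhr5 had 22.9, 25.8, 33.7 and 25.2 CPM in TCM tumors, against 27.8, 34.9, 36.8 and 33.5 CPM in TCM peri-tumor tissue. Control tumors held 23.7, 16.1, 25.1 and 21.1 CPM of it, against 53.4, 42.4, 42.1 and 49.1 CPM in control peri-tumor tissue. Every control tumor lay below every control peri-tumor library, while the TCM tissues overlapped. The log2 fold change of Cdhr5 was -0.30 ± 0.15 in TCM mice and -1.12 ± 0.15 in control mice. Per gene length, in FPKM as deposited, Cdhr2 and Cdhr5 stood at 5.09 ± 4.64 and 6.53 ± 0.813 in TCM tumors and at 5.56 ± 1.98 and 5.46 ± 1.06 in control tumors. Around the tumors Cdhr2 had 0.0495 ± 0.0614 FPKM in TCM and 0.0192 ± 0.00772 FPKM in control mice, where Cdhr5 had 7.37 ± 0.81 and 11 ± 1.02 FPKM. Around the tumors Cdhr2 was thus near 0 while Cdhr5 was not. How the partners compare in tumors rests on the gene length used: the deposited FPKM imply 4192 bases for Cdhr5, where GENCODE M21 gives 2739, and with the annotated length Cdhr5 stood at 9.99 FPKM in TCM tumors and 8.36 FPKM in control tumors, with Cdhr2 as above.

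The promoters of these partners are shown because their genes differed so in tumors. RefSeq's promoter table (GRCm38.p6) holds Cdhr2 and Cdhr5 of the 7 genes. Each run gives the 250 bases before the start of the gene, 5′ to 3′ on the gene's strand, with capitals for matches to a set of 8 motifs searched on both strands. The motifs were CDX (TTTATNG and TTTATTA), HNF4 (CAAAGTC), an HNF1 half-site (GTTAAT), TEAD (GGAATG), AP-1 (TGANTCA), ETS (CCGGAA) and the core promoter box TATAAA, and no 2 matches overlapped. Cdhr2 lies at chr13:54701213-54701462 on the plus strand and Cdhr5 at chr7:141276787-141277036 on the minus strand.
Cdhr2: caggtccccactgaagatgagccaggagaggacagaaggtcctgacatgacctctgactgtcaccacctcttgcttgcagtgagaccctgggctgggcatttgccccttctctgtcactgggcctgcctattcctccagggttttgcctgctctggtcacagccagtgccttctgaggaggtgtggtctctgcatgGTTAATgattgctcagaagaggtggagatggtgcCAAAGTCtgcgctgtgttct
Cdhr5: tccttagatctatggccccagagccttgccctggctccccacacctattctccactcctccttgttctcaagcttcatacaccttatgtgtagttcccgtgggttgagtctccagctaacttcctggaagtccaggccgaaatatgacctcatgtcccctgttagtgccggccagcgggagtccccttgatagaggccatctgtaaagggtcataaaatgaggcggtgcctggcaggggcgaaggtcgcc
The Cdhr2 window held the HNF1 half-site at -54 to -49 and the HNF4 letters at -20 to -14 from the start. The same letters occur in 6.43% (HNF1 half-site) and 3.84% (HNF4) of 32851 promoters of this length. The Cdhr5 window held none of the motif letters, which occur in 3.84% to 12.6% of all promoters. The 50 bases after the start used occur in 1 of 5 annotated transcripts of Cdhr5 and in 1 of 1 of Cdhr2. Other starts of Cdhr5, if any, were not searched.

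Spink1, the trypsin inhibitor, was measured at 10.7, 19.2, 16.1 and 37.1 CPM in TCM tumors, against 0, 0.0674, 0.604 and 0 CPM in TCM peri-tumor tissue. Control tumors had 44.6, 72.2, 50.1 and 41 CPM, against 0, 0.0604, 0.445 and 0.558 CPM in the tissue around them. Tumors and peri-tumor tissue did not overlap, and every TCM tumor also lay below every control tumor. The log2 fold change was 7.0 ± 0.70 in TCM mice, or 9.43 without TCM peri-tumor library 3, which held most of the TCM peri-tumor counts. It was 7.61 ± 0.65 in control mice, or 8.21 without control peri-tumor library 4. Of 12 other genes of the SPINK family, 11 had 0 counts in all 16 libraries and Spink5 had 91. Spink1 is also a product of pancreatic acinar cells, so their genes were counted: of 27, the trypsinogen gene Prss1 had 0 counts and the carboxypeptidase gene Cpa1 had 1 in all libraries. Prss1 shares 54.9% of its 50-base stretches with other genes, so its count may miss reads, while Cpa1 shares 0%. The list summed to 50.5 to 74.4 CPM in TCM tumors, 45 to 56 CPM in TCM peri-tumor tissue, 45.3 to 62.2 CPM in control tumors and 9.37 to 68.9 CPM in control peri-tumor tissue, nearly all of it Cela1 and Bhlha15, the 2 genes of the list that were tested. Bhlha15, a transcription factor of acinar and other secretory cells, rose in tumors of both treatments (log2 3.09 in TCM mice, adjusted p 0.00105, and 2.01 in control mice, adjusted p 0.00516, edgeR), and the elastase gene Cela1 was not called (0.16 in TCM mice and 0.49 in control mice). Their part in the level of Spink1 was not tested.

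Among 15 serine protease genes and protease-activated receptor genes set beside Spink1, 7 were tested, 5 rose and 1 fell in tumors of each treatment, with a median log2 of 1.73 in TCM and 2.14 in control mice. The largest rises in control mice were F2rl1, a receptor that trypsin-like proteases switch on (log2 5.22 in TCM and 5.41 in control mice, adjusted p 1.12e-06 in control mice, edgeR), and Plat, the tissue plasminogen activator (5.24 in control mice, adjusted p 2.41e-05). F2rl1 had 8.92 to 21 CPM in TCM tumors, 0 to 1.21 CPM in TCM peri-tumor tissue, 23.3 to 29.4 CPM in control tumors and 0.348 to 0.907 CPM in control peri-tumor tissue. Its groups, too, did not overlap between tumor and peri-tumor tissue.

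Cxcl17 was the member whose tumor level differed most between treatments. TCM tumors held 14.5, 4.21, 9.94 and 4.31 CPM, against 0, 0, 0.151 and 0.0639 CPM in TCM peri-tumor tissue, where the 4 libraries had 3 counts in all. From the counts, TCM tumors had 163 times the level of TCM peri-tumor tissue, with an exact counting interval of 55.5 to 794 that covers counting error only. Control tumors held 38.6, 91.7, 40.3 and 27.3 CPM, against 0.191, 0.0604, 0.445 and 0.0697 CPM around them. No tumor overlapped peri-tumor tissue, and all TCM tumors lay below all control tumors. The log2 fold change was 7.12 ± 0.82 in TCM mice (8.10 without TCM peri-tumor library 3) and 7.95 ± 0.65 in control mice (8.74 without control peri-tumor library 3). Among 14 other CXC chemokines, 12 were tested, and 5 rose and 1 fell in TCM tumors, while 5 rose and 2 fell in control tumors. Cxcl12, the ligand of Cxcr4, fell (control log2 -2.43, adjusted p 2.55e-08, edgeR), while Cxcl3 and Cxcl9 rose. Like Cxcl17, Cxcl3 was near 0 around tumors, with 0 counts in peri-tumor tissue of both treatments. By a floor of 3 counts over the group it was at least 34.7-fold higher in TCM and 36.9-fold higher in control tumors. Cxcl9 had a log2 of 2.39 in TCM and 1.88 in control mice. Of the receptors reported for CXCL17, mostly from human work, Gpr35 had 1.10 ± 0.491 CPM in TCM tumors, 0.267 ± 0.257 in TCM peri-tumor tissue, 3.21 ± 2.36 in control tumors and 1.11 ± 0.463 in control peri-tumor tissue. It rose in tumors of both treatments (log2 2.0 in TCM mice and 1.53 in control mice, where adjusted p was 0.0313), and so did Cxcr4 (2.69 in TCM and 2.96 in control mice). Gpr25 had 5 counts in all libraries.

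Tff3 was the most abundant member per gene length in all 4 groups. It had 185, 342, 332 and 74.3 CPM in TCM tumors, against 4.36, 7.35, 25.8 and 15.7 CPM in TCM peri-tumor tissue. Control tumors had 217, 144, 83.6 and 99.1 CPM, against 9.54, 1.93, 38.8 and 52.1 CPM around them. Tumors stayed above peri-tumor tissue in every library, but the peri-tumor libraries spread 5.93-fold in TCM mice and 27-fold in control mice. The log2 fold change was 4.13 ± 0.83 in TCM mice and 2.41 ± 0.76 in control mice (3.02 without control peri-tumor library 4, 2.97 with the mouse as a block). The other trefoil genes were hardly counted: Tff1 had 1 count and Tff2 had 23 in all 16 libraries.

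Gprc5a was the lowest member per length in tumors. It had 3.04, 0.682, 1.51 and 1.91 CPM in TCM tumors, against 0.066, 0.202, 0.151 and 0.192 CPM in TCM peri-tumor tissue. Control tumors had 5, 16.3, 7.71 and 6.68 CPM, against 0.127, 0, 0.127 and 0 CPM in control peri-tumor tissue. Tumors lay above peri-tumor libraries in both treatments, and every TCM tumor lay below every control tumor. The log2 fold change was 3.48 ± 0.63 in TCM mice and 6.95 ± 0.67 in control mice, on 9 counts in TCM and 4 in control peri-tumor tissue. Its relative Gprc5b rose too, with 56.6 ± 22.8 CPM in TCM tumors, 1.17 ± 1.31 in TCM peri-tumor tissue, 77.4 ± 12.1 in control tumors and 0.642 ± 0.371 in control peri-tumor tissue (log2 5.64 in TCM and 6.90 in control mice). Gprc5c rose less (log2 0.76 in TCM and 0.68 in control mice), and Gprc5d had 1 count. Of 12 other genes that respond to retinoic acid, 8 were tested; 2 rose and 3 fell in TCM tumors, and 1 rose and 4 fell in control tumors. Cyp26a1, which breaks retinoic acid down, fell (log2 -3.04 in TCM and -4.45 in control mice, adjusted p 6e-05 in control mice, edgeR).

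Levels of different genes can be set side by side only per gene length, in the deposited FPKM, which rest on the authors' gene lengths. In TCM tumors the order of means was Tff3 (479 ± 253 FPKM), Spink1 (50.2 ± 27.8), Cdh17 (15.1 ± 16.8), Cxcl17 (7.36 ± 4.65), Cdhr5 (6.53 ± 0.813), Cdhr2 (5.09 ± 4.64) and Gprc5a (0.887 ± 0.52). In control tumors it was Tff3 (291 ± 119 FPKM), Spink1 (131 ± 32.4), Cxcl17 (45.3 ± 25.2), Cdh17 (31.7 ± 22.6), Cdhr2 (5.56 ± 1.98), Cdhr5 (5.46 ± 1.06) and Gprc5a (4.54 ± 2.47). Tff3 overlapped no other member in either tumor group. Cdh17, Cxcl17, Cdhr5 and Cdhr2 overlapped in TCM tumors. Spink1 overlapped Cdh17 there too, and Gprc5a overlapped Cdhr2 and Cdh17. In control tumors Cxcl17 overlapped Cdh17, and Cdhr2, Cdhr5 and Gprc5a overlapped. Such overlap is a description: all genes were measured in the same libraries, and differences between genes were not tested. The lengths that these FPKM imply match GENCODE M21 for Cdhr2, Tff3 and Gprc5a, but not for Cdhr5, Spink1 (422 bases, annotated 729), Cxcl17 (1153, annotated 761) or Cdh17 (4803, annotated 4474). With annotated lengths, a setting chosen after seeing the data, the order of means in TCM tumors stayed as given, while in control tumors Cdhr5 passed Cdhr2, and Spink1 (75.6 FPKM) and Cxcl17 (68.6 FPKM) came close together. In peri-tumor tissue Tff3 (24.4 FPKM in TCM and 50.2 in control mice) and Cdhr5 (7.37 in TCM and 11 in control mice) were the members with a mean above 1 FPKM.

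**Figure D2:**
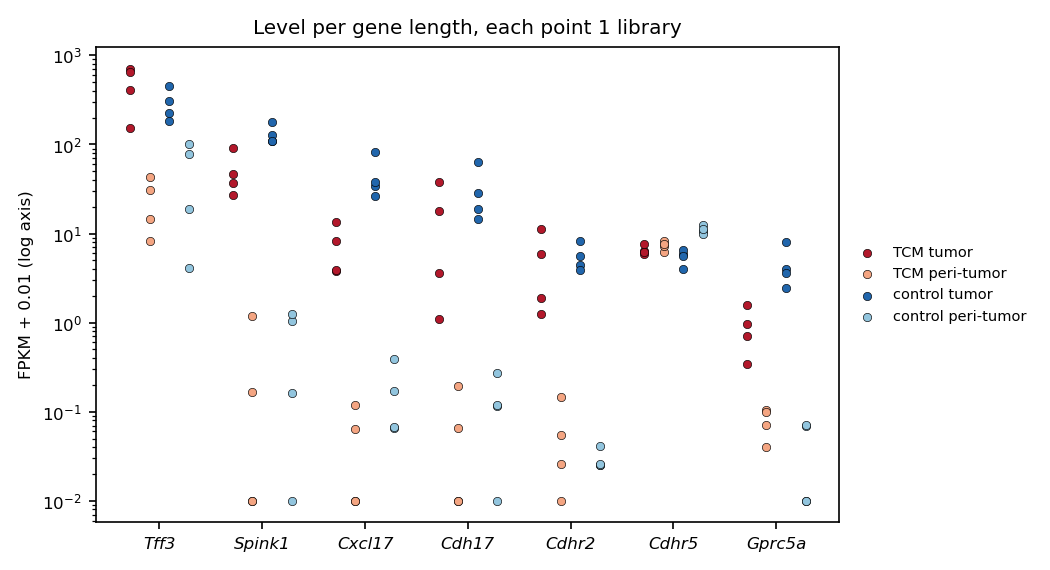
FPKM plus 0.01 on a log axis, 1 point per library, for the 7 genes ordered by their mean in control tumors, with TCM tumors, TCM peri-tumor tissue, control tumors and control peri-tumor tissue side by side. Tff3 is highest in each group (479 FPKM in TCM tumors and 291 in control tumors), and Cdhr5 is the gene whose 4 groups lie closest together.

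Within a treatment no tumor was highest, and none was lowest, for all 7 genes. Cdh17 and Cdhr2 put the 4 TCM tumors in the same order, but not the 4 control tumors. TCM tumor 4 had the highest Cdh17, Cdhr2 and Spink1 of its group and the lowest Tff3. TCM tumor 2 had the highest Tff3 and the lowest Cdh17, Cdhr2, Cxcl17 and Gprc5a. Control tumor 2 had the highest Cdhr2, Spink1, Cxcl17 and Gprc5a of its group, and control tumor 4 the highest Cdh17 and the lowest Spink1 and Cxcl17. The ratio of the highest to the lowest tumor was 34.3 in TCM and 4.1 in control tumors for Cdh17, and 1.47 in TCM and 1.56 in control tumors for Cdhr5. The other 5 genes spread 3.44-fold to 9.07-fold in TCM tumors and 1.76-fold to 3.36-fold in control tumors.

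**Figure D3:**
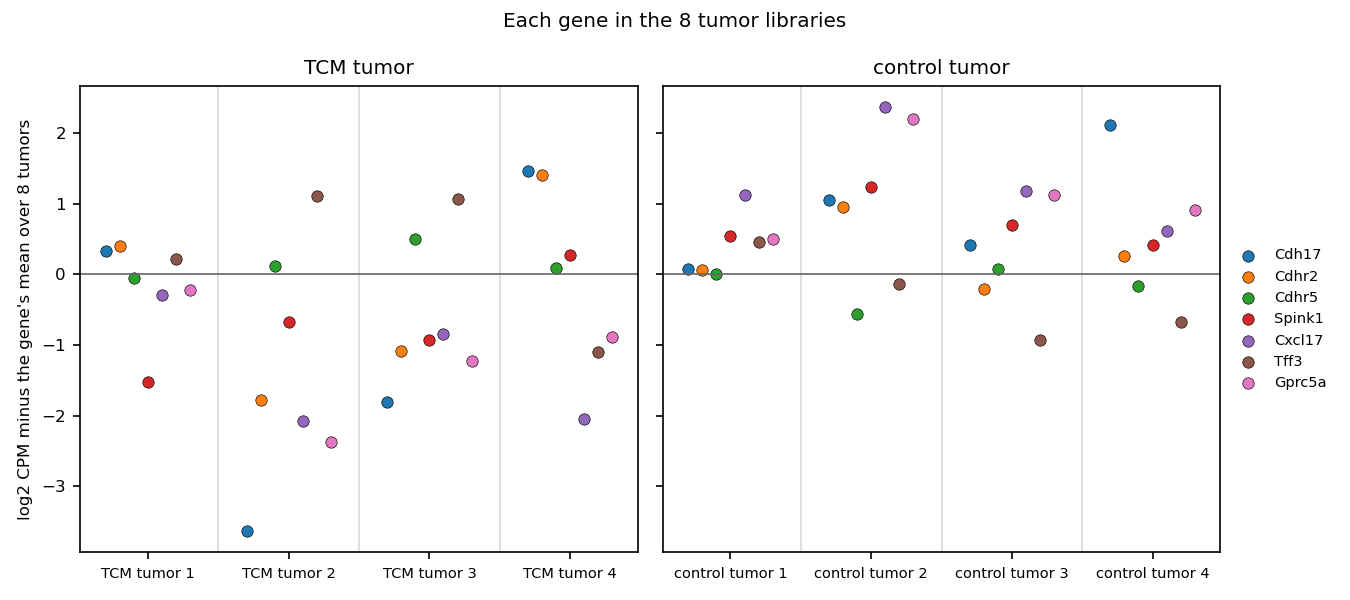
Log2 CPM of each gene in the 8 tumor libraries, less that gene's mean over these tumors, with TCM tumors left and control tumors right and 1 colour per gene. Cdh17 spans from its lowest value in TCM tumor 2 (5.14 CPM) to its highest in control tumor 4 (277 CPM), while Cdhr5 stays near its mean.

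TCM peri-tumor library 3 had the highest level of its group for Cdh17, Cdhr2, Cdhr5, Spink1, Cxcl17 and Tff3, but not for Gprc5a. Its lead was small for Cdhr5 (36.8 CPM against 34.9 CPM in library 2), and its Cxcl17 rested on 2 counts. This library also had the highest Afp, the fetal liver protein that tumors make (18.6 CPM against 2.25 to 3.9 in the other 3). The same held for Mki67, a marker of dividing cells (8.16 CPM against 1.32 to 3.19). Tumors themselves held 293 to 350 CPM of Afp in TCM and 257 to 943 CPM in control mice. The part of tumor cells in that library was not tested.

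The choice of genes did not compare treatments, but it used the tumor levels that the test between treatments in tumors compares. Cxcl17 and Gprc5a were lower in TCM tumors than in control tumors, and the other 5 did not pass the test: 2 of 7 called, both lower, where 7.27% of all tested genes were called and 2.72% were called lower. Cxcl17 averaged 8.24 ± 4.96 CPM in TCM tumors and 49.5 ± 28.7 CPM in control tumors, a log2 fold change of -2.58 ± 0.44 (95% interval -3.51 to -1.65, adjusted p 0.00454, edgeR quasi-likelihood test). Gprc5a averaged 1.79 ± 0.978 CPM in TCM tumors and 8.93 ± 5.06 CPM in control tumors, a log2 fold change of -2.31 ± 0.45 (-3.26 to -1.36, adjusted p 0.00886). Both were lower in 4 of 4 TCM tumors than in any control tumor. Both stayed called under each of the 15 other settings tried, with adjusted p of 1.43e-05 to 0.0267 for Cxcl17 and 0.000136 to 0.0395 for Gprc5a. Cxcl17, Cdhr2, Cdh17 and Spink1 stood among the largest rises of control tumors when the genes were picked, which may favour high values in control tumors. The same limit may hold for Gprc5a, picked for a rise that was log2 6.95 in control and 3.48 in TCM mice. The count of 2 of 7 is thus no independent support.

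Spink1 averaged 20.8 ± 11.4 CPM in TCM tumors and 52 ± 14 CPM in control tumors. Its libraries did not overlap, yet its log2 fold change of -1.32 ± 0.43 (-2.23 to -0.42) did not pass (adjusted p 0.0694). Libraries that did not overlap and were lower in TCM tumors were seen for 7.04% of tested genes. With 1 library left out, the value ran from -1.73 without TCM tumor 4, the highest of its group, where Spink1 passed (adjusted p 0.0245), to -1.07 without TCM tumor 1 (adjusted p 0.17). DESeq2 gave -1.32 with an adjusted p of 0.348. Cdh17 (69.9 ± 78.1 CPM in TCM and 141 ± 94.8 CPM in control tumors) gave -1.01 ± 0.78 with an interval of -2.66 to 0.64 (adjusted p 0.451). It was -2.0 without TCM tumor 4, -0.59 without TCM tumor 2 and -0.44 without control tumor 4, and passed in none of these (adjusted p 0.129, 0.64 and 0.779). Cdhr2 (20.3 ± 18.5 and 21.6 ± 8.1 CPM in TCM and control tumors) gave -0.09 ± 0.52, with an interval of -1.20 to 1.01 that leaves room for a change of 2-fold either way. Tff3 gave 0.78 ± 0.72 (-0.76 to 2.32, adjusted p 0.543) and Cdhr5 0.33 ± 0.15 (0.00 to 0.65, adjusted p 0.196).

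**Figure D4:**
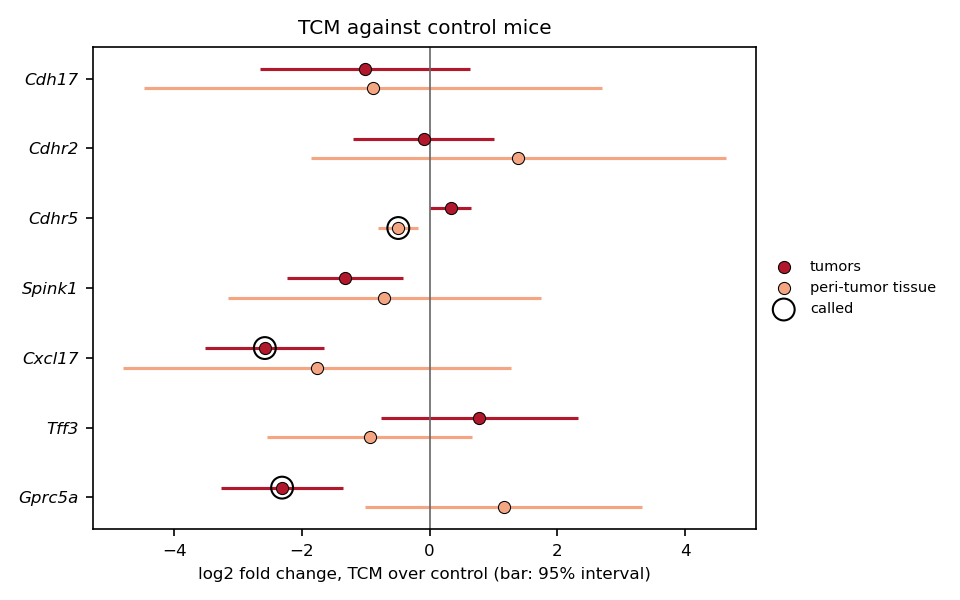
Log2 fold change of TCM over control with its 95% interval for each gene, in tumors (dark, upper) and in peri-tumor tissue (light, lower), with a ring around called values. Rings mark Cxcl17 (-2.58) and Gprc5a (-2.31) in tumors and Cdhr5 (-0.49) in peri-tumor tissue.

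Some markers of macrophages were lower in the same TCM tumors. Of 16 markers, all tested, 5 were called lower and 0 higher in TCM tumors, where 2.72% of tested genes were called lower. Their median log2 was -0.73 over all 16. Among those called were Gpnmb (log2 -3.49, adjusted p 0.00919, edgeR), Trem2 (-2.36), Cd68 (-1.35) and Itgam (-3.15). The other 11 were not called, and 4 markers of resident macrophages had values above 0: Marco (0.80), Timd4 (0.68), Clec4f (0.05) and Cd163 (0.05). The 16 summed to 237 to 436 CPM in TCM tumors and 371 to 694 CPM in control tumors, and none was at 0 in either group. In peri-tumor tissue 5 of 16 were called lower and 0 higher with TCM, where 7.36% of tested genes were called lower. These were mostly other markers: Adgre1, Csf1r, Clec4f and Cd163, with Cd68 called in both tissues. The median log2 in peri-tumor tissue was -1.36, with sums of 312 to 362 CPM in TCM and 491 to 986 CPM in control mice. Their part in the levels of Cxcl17 and Gprc5a was not tested.

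In peri-tumor tissue 1 of 7 genes was called between treatments, where 14.1% of tested genes were called and 7.36% were called lower. Cdhr5 was lower, with 33.2 ± 3.87 CPM in TCM and 46.8 ± 5.47 CPM in control peri-tumor tissue (log2 -0.49 ± 0.15, interval -0.81 to -0.18, adjusted p 0.0398, edgeR). All TCM peri-tumor libraries lay below all control ones, as they did for 8.85% of tested genes. The call was lost when any 1 of these 8 libraries was left out (adjusted p 0.0537 to 0.115). The other 6 had adjusted p of 0.437 to 0.77, and 5 of them rest on few counts. The tumor effect itself, TCM minus control, was called for 0 of 7 genes by edgeR (1.11% of tested genes were called). By edgeR, Cdhr5 had a log2 of 0.82 ± 0.21 (adjusted p 0.068) and Gprc5a one of -3.47 ± 1.14 (adjusted p 0.131). DESeq2 called both, among 791 genes in all. The Gprc5a value rests on 9 counts in TCM and 4 in control peri-tumor tissue. The choice of genes also used the tumor and peri-tumor levels that this comparison is built from. This comparison shares its libraries with the others and is no separate support for them.

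RNA of some brush border genes around Cdhr2 was higher in tumors, and RNA of others was not. Of the 4 other genes of the complex at the microvillus tip, 3 were tested. Myo7b, the motor that carries it, was measured at 5.39 to 10.3 CPM in TCM tumors, 0 to 0.453 CPM in TCM peri-tumor tissue, 8.41 to 11.2 CPM in control tumors and 0 to 0.279 CPM in control peri-tumor tissue. It rose (log2 5.48 in TCM and 7.03 in control mice, adjusted p 1.36e-06 in control mice, edgeR), as did its light chain Calml4 (1.63 in TCM and 2.05 in control mice). The scaffold Anks4b was counted in all groups and fell in control tumors (-0.55, adjusted p 0.0212), with -0.14 and an adjusted p of 0.572 in TCM mice, and the scaffold Ush1c had 1 count in all 16 libraries. Of 16 genes of brush border structure, 11 were tested; 5 rose and 0 fell in TCM tumors, and 4 rose and 2 fell in control tumors. Their median log2 fold change was 0.86 in TCM and 0.78 in control mice, against 0.00 over all tested genes. Pls1, an actin bundler, rose (4.02 in TCM and 5.45 in control mice), while villin, Vil1, had a log2 of 3.90 in TCM mice and 1.76 in control mice, the second not called (adjusted p 0.0554). The genes that fell in control tumors were Slc9a3r1 (log2 -0.84) and Pdzk1 (-0.41). Among the untested, Myo1a had 2 counts, Baiap2l2 had 1 and Tmigd1 had 6 in all 16 libraries.

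Other enterocyte and goblet cell genes were mixed or not counted. Of 25 enterocyte genes 15 were tested; 6 rose and 2 fell in TCM tumors, 7 rose and 3 fell in control tumors, and the medians were 0.49 in TCM and 0.51 in control mice. Krt20, a keratin of gut surface cells, had 2.67, 2.79, 6.92 and 16.4 CPM in TCM tumors against 0, 0, 0.529 and 0 CPM around them. Control tumors had 0.887, 3.53, 2.5 and 1.25 CPM of it against 0 counts in all 4 peri-tumor libraries, at least 41.5-fold higher by a floor of 3 counts over the group. Mep1a, a brush border protease, was likewise at 0 in control peri-tumor tissue and at least 91-fold higher in control tumors by that floor. Dpp4 and Enpep, peptidases of the same membrane, fell (control log2 -2.33 and -3.28), and the sugar-splitting Sis and Lct had 1 count each and the phosphatase Alpi 6 in all libraries. Of 19 goblet cell genes other than Tff3, 2 were tested; 1 rose in TCM tumors and 2 rose in control tumors. Galnt12, which starts sugar chains on mucins, rose in both treatments (log2 3.91 in TCM mice, adjusted p 0.000533, and 3.71 in control mice, adjusted p 0.000127, edgeR), and the transcription factor Creb3l1 rose in control mice (1.44, adjusted p 0.0224) with 0.78 and an adjusted p of 0.231 in TCM mice. Muc2, Zg16, Agr2 and Atoh1, which define the cell, had 0 counts in every library. The 19 summed to 2.52 to 5.89 CPM in TCM tumors, 1.28 to 3.78 CPM in TCM peri-tumor tissue, 4.37 to 9.36 CPM in control tumors and 1.53 to 3.28 CPM in control peri-tumor tissue. Of 10 Paneth and 14 enteroendocrine cell genes none had enough counts to be tested. Among 19 transcription factors of the gut, 14 were tested, with 7 higher and 1 lower in TCM tumors and 7 higher and 3 lower in control tumors; the intestinal regulator Cdx2 had 0 counts and Cdx1 had 1.

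**Figure D5:**
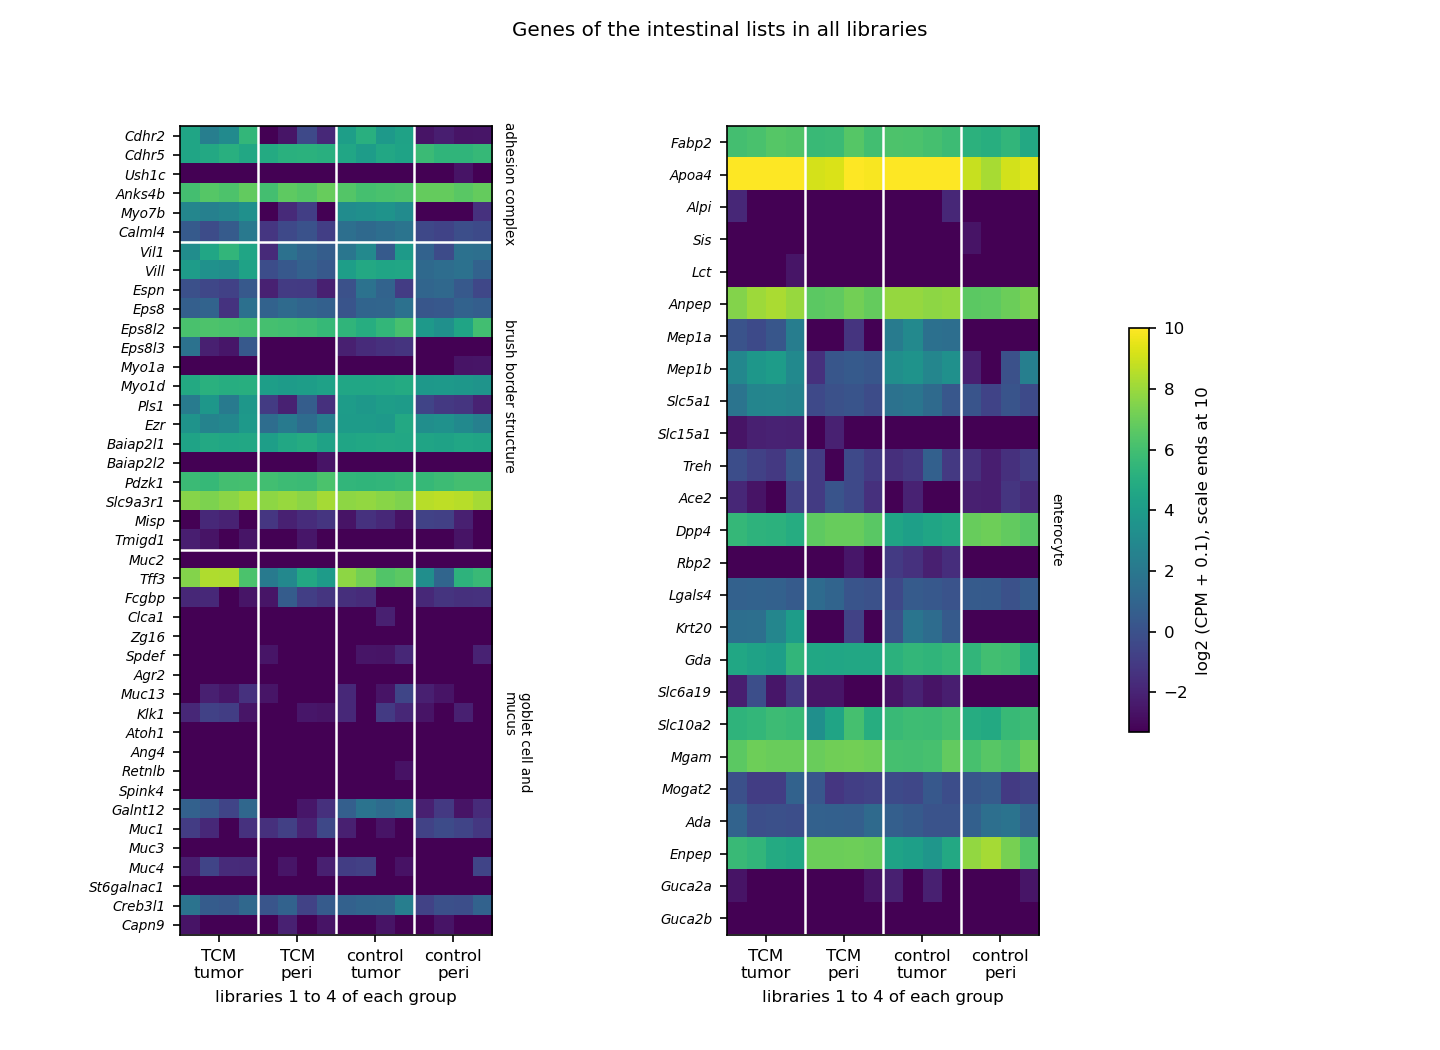
Heat map of log2 (CPM + 0.1) over the 16 libraries for the genes of the intermicrovillar adhesion complex (with Cdhr2 and Cdhr5), brush border structure, goblet cells (with Tff3) and enterocytes. Cdhr2, Myo7b, Pls1, Krt20 and Mep1a are brighter in tumors than around them, Cdhr5 and Anks4b are bright throughout, and most goblet cell genes are dark in every library.

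Bile duct cells of the liver also carry gut-type epithelial genes, so their markers were set beside these genes. Of 16, 13 were tested, with 6 higher and 0 lower in TCM tumors and 5 higher and 1 lower in control tumors. Their summed level was 810 to 1894 CPM in TCM tumors, 191 to 330 CPM in TCM peri-tumor tissue, 1425 to 2838 CPM in control tumors and 185 to 355 CPM in control peri-tumor tissue, and in tumors Spp1 and Tspan8 made up most of it. The defining keratins were low: Krt19 had 0.486 CPM in TCM tumors, 0.39 in TCM peri-tumor tissue, 0.127 in control tumors and 1.1 in control peri-tumor tissue, and Krt7 had 88 counts in all libraries. Ggt1 was at 0 in TCM tumors. Their part in the levels of the 7 genes was not tested. Of 12 hepatocyte markers all were tested, none was at 0, and their sum was 181827 to 279025 CPM in TCM tumors, 137921 to 202362 CPM in TCM peri-tumor tissue, 185907 to 250647 CPM in control tumors and 115058 to 172977 CPM in control peri-tumor tissue, so the labelled tissue showed its markers throughout. Among the relatives of Cdh17, Cdh16, which shares its build, had 0 counts in all libraries, and Cdh1, the E-cadherin of epithelia, rose (log2 1.14 in TCM and 1.64 in control mice).

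The genes whose profile lay closest to each member were found by the mean absolute difference of centred log2 CPM over the 16 libraries, among 10109 genes. Closest to Cdh17 were Ly6d (0.58) and Kif5c (0.70), to Spink1 Kif5c (0.45) and Afp (0.52), and to Cdhr2 Cdkn2b and Gprc5b (0.51 each). Ly6d had 356, 41, 115 and 653 CPM in TCM tumors and 569, 773, 511 and 714 CPM in control tumors, with TCM tumors 2 and 3 lowest as for Cdh17. Closest to Cxcl17 were Cdkn2b (0.73) and Alox5 (0.77), to Gprc5a Tnfrsf10b (0.48) and Igfbp3 (0.49), and to Tff3 Mep1b (0.62). Closest to Cdhr5 were Cpn2 (0.13) and F10 (0.14), both products of hepatocytes, at 324 and 320 CPM in TCM tumors, 400 and 406 in TCM peri-tumor tissue, 276 and 290 in control tumors and 541 and 531 in control peri-tumor tissue. The nearest fellow member to Cdhr5 was Tff3 at 2.20, while every other member had a fellow within 0.84 to 1.39. Such closeness is a description over libraries that share 2 tissues, and it says nothing of shared control.

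The 16 libraries held 13947483 to 16194224 counts. Hras, counted with or without the transgene, had 27.6 to 45.2 CPM in all libraries. Besides Cdh17, whose position stands above, and Spink1, whose position is not given here, the genes lie at chr13:54701461-54736662 (Cdhr2, plus), chr7:141269083-141276786 (Cdhr5, minus), chr7:25400053-25412886 (Cxcl17, minus), chr17:31125306-31129646 (Tff3, minus) and chr6:135065651-135084709 (Gprc5a, plus). All 7 are protein coding, share 0% of their 50-base words with other genes and overlap no exon of another gene, so no reads had to be split between copies.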

How the data were processed

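Both liver tissues of 8 mice were sequenced from stranded mRNA libraries, per the labels' protocols. The deposited counts are whole reads per gene and library, per the file headers, and the FPKM values are the authors' own, per the file headers; implied gene lengths differed by at most 0.00218% between libraries. The submitters' processing notes name mm10 and mm9; aligner, counter and strand setting are not stated there. Counts were tested with edgeR 4.0.16 in R 4.3.3 (TMM, filterByExpr with a count minimum of 10, 1 fit of 16 libraries, quasi-likelihood F test, Benjamini-Hochberg over 14865 genes). SE is the log2 value divided by the root of its F, and fitted folds of genes near 0 depend on the prior count. Genes, lists and naming rule (all 7 members; per list the genes with the lowest p, and fixed defining genes) were chosen with earlier results of these data known. The code was tested on simulated data. Animal codes in the labels pair both tissues of a mouse: with group means removed their correlations were 0.338, 0.0718, 0.0551 and 0.157 in TCM and 0.186, 0.147, 0.0703 and 0.293 in control mice. Alternatives were RLE factors, DESeq2 1.42.0, no filter, 1 CPM in 4 libraries, only the groups compared, a block, each library left out, and control mouse 4 left out. No library was a copy of another of its group, and pairs across groups were not checked for copies. Protein sequences and the promoters of 5 genes were not used here. A gene that the naming rule takes is not reported here.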

Additional observations from a re-analysis of the deposited data

Results flagged for a closer look

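Among 28 sets of 4 libraries (7 genes in 4 groups), 2 held a library far from its fellows, where chance marks about 1 in 20. Spink1 stood at 0.604 CPM in TCM peri-tumor library 3, against 0 to 0.0674 CPM in the other 3 libraries. Cdhr2 stood at 0.121 CPM in control peri-tumor library 2, against 0.0636 to 0.0697 CPM in the others, a gap between very few counts.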

How the results depend on the processing

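Of 569 fold changes of the 7 genes recomputed under 24 settings, 540 were labelled the same. Between tumor and peri-tumor tissue this meant a size within the spread. Between treatments and for the tumor effect it meant the same direction and side of the threshold, at any size. Spink1 between treatments in peri-tumor tissue thus counted as the same at -0.71 and at -3.15 without TCM peri-tumor 3. The cause of the other changes was not tested. Genes called between tumors of the treatments were 1081, and 1761 by DESeq2, 687 without the filter, 1878 without control mouse 4 and 406 to 1250 with 1 library left out. In peri-tumor tissue they were 2097, 3434 without control mouse 4 and 1101 to 3224 with 1 library left out. For the tumor effect they were 165, and 791 by DESeq2, 79 without the filter, 107 with the mouse as a replicate block, 714 without control mouse 4 and 58 to 665 with 1 library left out. Of the 7 genes, 2 were called in tumors (2 to 3 with 1 library left out) and 1 in peri-tumor tissue (0 without the filter, without control mouse 4 and with any 1 library left out); for the tumor effect 0 were called by edgeR and 2 by DESeq2 (adjusted p 0.0152 for Cdhr5 and 0.0274 for Gprc5a). Directions turned only where no call stood: with 1 library left out the values ran from -0.83 to 0.26 for Cdhr2 in tumors and, for the tumor effect, from -1.12 to 1.60 for Cdh17, -1.21 to 1.82 for Spink1 and -1.62 to 0.16 for Cxcl17. The turned values were, for Cdhr2 in tumors, 0.21, 0.26 and 0.17 without control tumor 2, TCM tumor 2 or TCM tumor 3; for the tumor effect of Cdh17, 0.45, 0.29, 0.29, 0.19, 1.60 and 0.50 without control tumor 4, control peri-tumor 1, TCM tumor 2, TCM tumor 3, TCM peri-tumor 3 or control mouse 4; and for Spink1 and Cxcl17, 1.82 and 0.16 without TCM peri-tumor 3. A block by mouse or, between treatments, by a replicate number that pairs nothing changed no call of the 7 genes. Between treatments the numbers were only shared, with correlations of -0.121 to -0.0127 in tumors and 0.0306 to 0.12 in peri-tumor tissue; 1087 genes were called in tumors and 2047 in peri-tumor tissue with that block. Of 3936 recomputed counts over the 24 lists, 274 moved over 1.5 times. In peri-tumor tissue 5 of the 7 genes rested on 3 to 36 counts per group, which limits their folds.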
